A study of Mus musculus with 29 samples.

Results

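The genes described here are 10 whose read counts differed in the same direction between GADD45B knockout (KO) and wild-type (WT) hematopoietic stem cells (HSCs), in young and in old mice. They were taken by symbol out of 55376 gene symbols, of which 33690 were expressed highly enough to be tested, and all 10 passed that filter. Wdfy1, Gm8146, Gm9855 and Krt13 were higher in KO libraries, whereas Akap7, Ncoa7, Gm32687, Gm8153, Gm19428 and Dlx4os were lower. Because the KO to WT differences chose these genes, those differences are given as a description with no test.

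The RNA-seq data set comprised 19 HSC libraries, namely 4 labelled YWT (young, wild type), 4 OWT (old, wild type), 4 YKO (young, Gadd45b knockout) and 7 OKO (old, Gadd45b knockout). The labels give age only as young or old, name no drug treatment, and give female sex for each library. The knockout mice were a JAX stock bred at the study's own animal facility. The sources used here name neither the strain background of the knockout mice nor the part of Gadd45b that is missing, and do not say whether WT mice were littermates. Nothing states that libraries of a group came from separate mice, so p-values measure the spread between these libraries, which may be partly technical.

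HSCs are the rare marrow cells that renew themselves and give rise to all blood lineages. Gadd45b encodes a stress-inducible protein linked to active DNA demethylation, in which thymine DNA glycosylase, the product of Tdg, removes oxidised forms of methylcytosine. Several of the genes below are processed pseudogenes, which arise when a spliced mRNA is copied back into the genome. Reads of such a copy and of its parent gene can be told apart only at the bases where they differ.

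Among the 10 genes, 5 had a transcript at least 90% identical to that of another gene over at least 50% of their length, by alignment of the GENCODE M21 transcripts on mm10. Windows of 180 bases are shown for 3 of these pairs, because the read counts of both genes of a pair bear on each other. Each is the gap-free window with the most differing bases inside the coding sequence of the partner, so it is not typical of the pair. Sequences are 5′ to 3′ on the transcript strand, and capitals mark the bases at which the genes of a pair differ. Gm9855 is a processed pseudogene on chromosome 10 with 99.2% identity to Tdg, with 9 mismatches over 1194 aligned bases. The window lies in its 1 exon at chr10:42054206-42054385, minus strand, and the matching window of Tdg lies in coding exons 8 to 10 at chr10:82647390-82648627, plus strand. The windows of Gm9855 and Tdg differ at 5 bases.
Gm9855: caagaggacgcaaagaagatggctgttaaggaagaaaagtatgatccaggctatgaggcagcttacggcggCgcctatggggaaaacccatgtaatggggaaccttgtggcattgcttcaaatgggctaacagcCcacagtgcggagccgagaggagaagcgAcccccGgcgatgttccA
Tdg: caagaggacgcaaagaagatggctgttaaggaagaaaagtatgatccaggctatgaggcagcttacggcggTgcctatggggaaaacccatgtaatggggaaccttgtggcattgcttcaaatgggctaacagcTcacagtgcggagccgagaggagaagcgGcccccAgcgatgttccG

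Gm8146 is a processed pseudogene on chromosome 1 with 97.4% identity to Haus5, which encodes a subunit of the augmin complex of the mitotic spindle. The window of Gm8146 lies at chr1:181282883-181283062, plus strand, and that of Haus5 in coding exons 11 to 13 at chr7:30658660-30659105, minus strand. They differ at 7 bases.
Gm8146: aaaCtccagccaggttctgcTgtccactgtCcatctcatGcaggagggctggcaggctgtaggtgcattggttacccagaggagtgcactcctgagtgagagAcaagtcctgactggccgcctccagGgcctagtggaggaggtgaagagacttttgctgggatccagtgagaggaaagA
Haus5: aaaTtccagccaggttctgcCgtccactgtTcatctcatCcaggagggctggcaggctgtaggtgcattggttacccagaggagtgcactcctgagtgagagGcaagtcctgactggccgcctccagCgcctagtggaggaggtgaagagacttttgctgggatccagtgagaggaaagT

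Gm32687 is annotated as protein coding and is 99.9% identical to Zfp433, a zinc finger gene, with 3 mismatches over 2379 bases. The window of Gm32687 spans exons 3 and 4 at chr10:81878364-81879094, plus strand, and that of Zfp433 spans exons 3 and 4 at chr10:81719254-81719984, plus strand. They differ at 1 base, the last one shown.
Gm32687: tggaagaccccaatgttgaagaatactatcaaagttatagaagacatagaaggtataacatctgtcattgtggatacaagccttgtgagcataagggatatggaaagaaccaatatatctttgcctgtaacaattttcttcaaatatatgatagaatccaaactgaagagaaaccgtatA
Zfp433: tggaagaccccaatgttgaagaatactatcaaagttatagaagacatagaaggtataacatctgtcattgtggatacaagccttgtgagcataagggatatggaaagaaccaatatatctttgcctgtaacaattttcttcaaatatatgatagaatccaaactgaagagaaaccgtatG

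Among the other members, Gm8153 was 99.8% identical to Gm5173 and Gm19428 was 90.6% identical to Gm10323. Haus5, Zfp433, Gm5173 and Gm10323 were named after the values were seen.

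The libraries held between 22197555 and 77970627 counts (median 57562473). The titles carry a prefix for the 4 OWT libraries and OKO4 to OKO7 (batch 2, 8 libraries) and none for the other 11 (batch 1), so OWT and YWT share no batch. TMM scaling factors were 1.244 to 1.826 in OKO1 to OKO3, 1.217 in YWT4 and at most 1.024 in the other libraries. All 13 genes of the HSC marker list were counted in every library. The list includes Cd34 and Flt3 (Flk2), although the paper defines HSCs as negative for CD34 and Flk2. Summed erythroid markers ranged from 1420 to 3890 CPM in YKO and from 606 to 2070 CPM in YWT. Summed granulocyte markers did not overlap between OWT (589 to 811 CPM) and OKO (160 to 560 CPM), and ranged from 160 to 488 CPM in YWT and from 47.9 to 261 CPM in YKO. T cell markers were 18.8 to 33.1 CPM in YWT and 32.2 to 110 CPM in YKO, and macrophage markers 109 to 158 and 137 to 247 CPM. Plasma cell markers were 1290 to 18500 CPM in YWT (highest in YWT2) and 714 to 13100 CPM in YKO (highest in YKO2). B cell markers were 231 to 448 CPM in YWT and 179 to 1410 CPM in YKO, highest in the same libraries. The part of these cells in the values below was not tested. Y-linked genes exceeded 1 CPM in 7 libraries (2 YWT, 2 YKO, 1 OWT and 2 OKO), although the labels name females. The methods of the paper state that mice of both sexes were used. Gadd45b itself was 9.12, 17.5, 8.17 and 7.34 CPM in YWT and 12.7, 14.3, 5.98 and 5.14 CPM in YKO, so these groups overlapped. It was 10.1 to 15.5 CPM in OWT and 2.84 to 6.94 CPM in OKO with no overlap (log2 fold change −1.37 ± 0.31 SE, edgeR adjusted p = 0.267). The count of the targeted gene therefore did not bear out the YKO labels, although reads outside the missing part would check nothing, and YKO and OKO stand throughout for the libraries labelled so.

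Values are CPM, the counts of a gene relative to the library total, scaled by the TMM method. A gene was called when its edgeR quasi-likelihood p, adjusted by Benjamini-Hochberg over all tested genes, was under 0.05 and its fold change over 1.5. In YKO vs YWT, 2 of the 10 genes were called (Wdfy1 and Gm9855), beside 9 of all tested genes (0.0267%). In OKO vs OWT the same 2 were called, beside 11 of all tested genes (0.0327%). The KO and WT libraries did not overlap for 8 of the 10 in young HSCs, beside 5.12% of all tested genes. They did not overlap for 6 of the 10 in old HSCs, beside 0.819% of all tested genes. At both ages and in the same direction 5 did not overlap (Wdfy1, Ncoa7, Gm9855, Gm32687 and Gm8153), beside 46 of all tested genes (0.137%). The genes were chosen on these differences, so nothing is read from their counts.

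**Figure D1:**
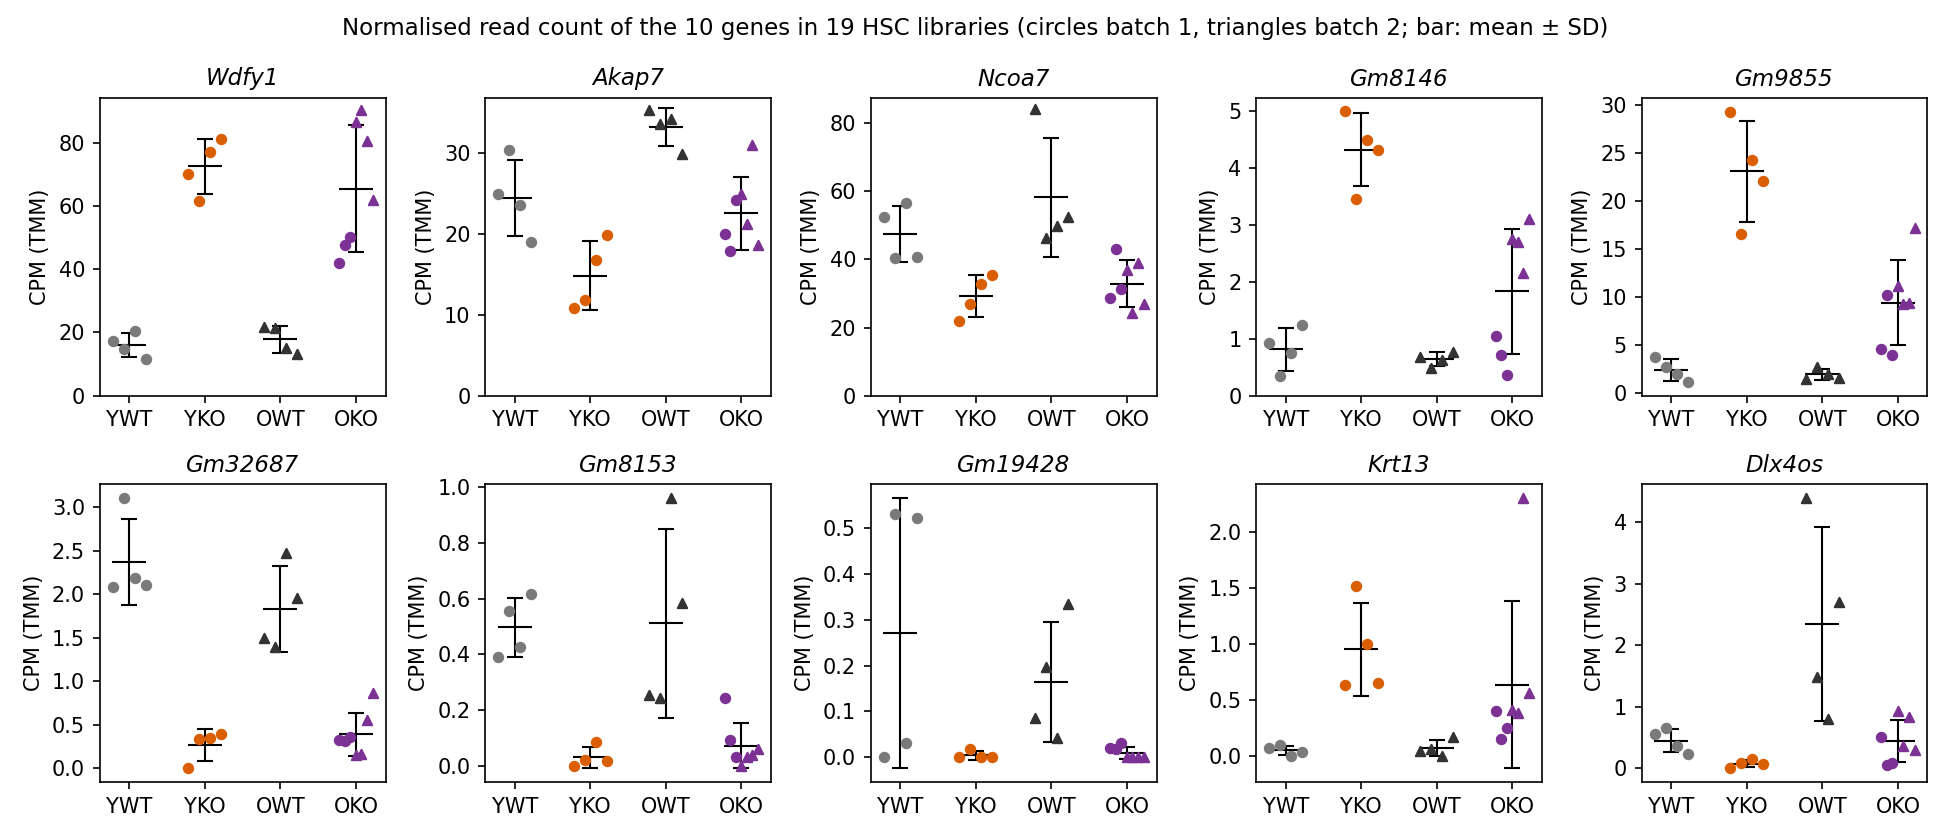
CPM (y axis, linear, its own range for each gene) of the 10 genes in the 4 groups, with 1 point per library, circles for batch 1, triangles for batch 2, and bars for the mean ± SD (n = 4, 4, 4 and 7). Wdfy1 was 61.7 to 81.4 CPM in YKO and 11.5 to 20.5 CPM in YWT, and 5 of the 10 genes had no overlap of KO and WT at either age.

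**Figure D2:**
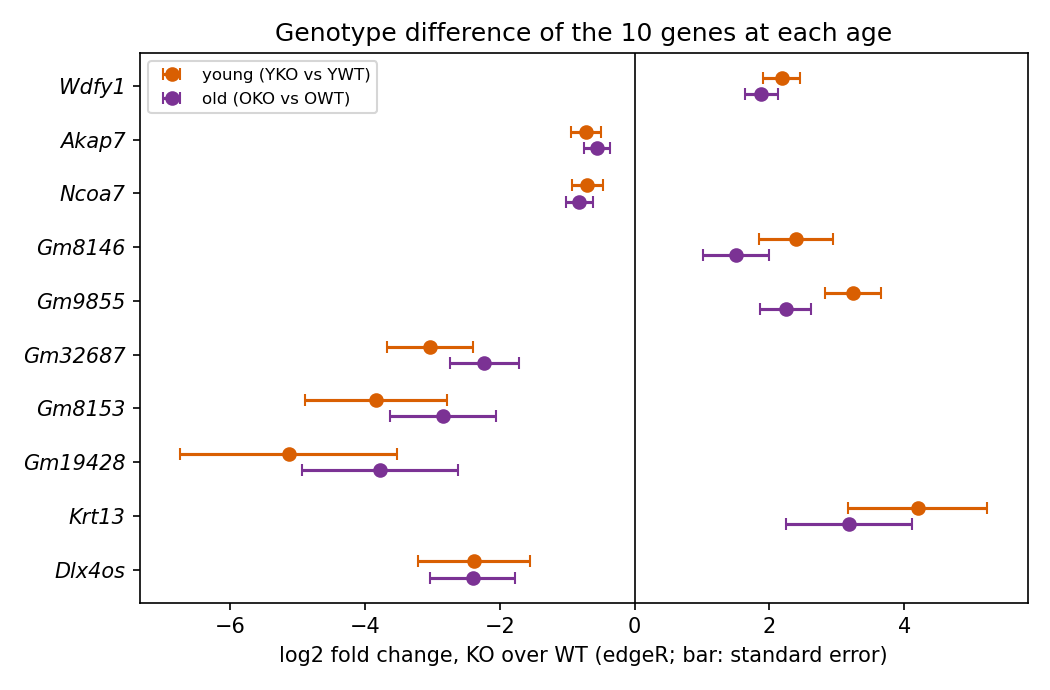
Log2 fold change of KO over WT (x axis) for each of the 10 genes in young HSCs and in old HSCs, with bars for the standard error of the edgeR fit. The 4 genes higher in KO lie to the right of 0 at both ages and the 6 lower ones to the left, which the choice of the genes fixed.

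Wdfy1 encodes a WD-repeat and FYVE-domain protein of endosomes that links Toll-like receptors 3 and 4 to the adaptor TRIF. The gene lies at chr1:79702262-79776143 on the minus strand. Wdfy1 was at 17.2, 14.9, 20.5 and 11.5 CPM in the YWT libraries and at 70.2, 61.7, 77.0 and 81.4 CPM in the YKO libraries. In old HSCs it was at 21.7, 21.4, 15 and 13.1 CPM in OWT, and in OKO the lowest, median and highest libraries were at 41.9, 61.8 and 90.3 CPM. Each KO library lay above each WT library of its age, and the lowest OKO library still held more than the highest of either WT group. In bulk libraries, more cells that express a gene and more RNA per cell cannot be told apart. The means were 16 ± 3.8 CPM in YWT and 72.6 ± 8.6 CPM in YKO (SD, n = 4 each), with a log2 difference between them of 2.18 ± 0.27 (SE). In old HSCs they were 17.8 ± 4.41 CPM (SD, n = 4) and 65.6 ± 20 CPM (SD, n = 7), a log2 fold change of 1.88 ± 0.25 (SE). Under the alternatives for the processing, the log2 fold change of Wdfy1 ranged from 2.05 to 2.31 in young and from 1.65 to 2.19 in old HSCs.

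Akap7 and Ncoa7, both on chromosome 10, differed less. Akap7 encodes an anchor that tethers protein kinase A to membranes and channels, and lies at chr10:25169090-25307870, minus strand. It was at 25.0, 30.4, 23.6 and 19 CPM in YWT and at 10.9, 11.8, 16.8 and 19.9 CPM in YKO. It was at 35.3, 33.6, 34.2 and 29.9 CPM in OWT, and from 17.9 through a median of 21.2 to 31.0 CPM in OKO. At each age 1 KO library (YKO4 and OKO6) reached into the WT range, so the groups overlapped. The log2 fold change of Akap7 was −0.72 ± 0.22 (SE) in young and −0.56 ± 0.19 (SE) in old HSCs.

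Ncoa7 encodes a nuclear receptor coactivator with a TLDc domain, a fold known from proteins that protect against oxidative damage, and lies at chr10:30628999-30803326, minus strand. It was at 52.4, 40.4, 56.7 and 40.8 CPM in YWT and at 21.9, 27.0, 32.8 and 35.4 CPM in YKO. It was at 84.3, 46.2, 49.8 and 52.6 CPM in OWT, and from 24.2 through a median of 31.3 to 43.0 CPM in OKO. With TMM scaling all KO libraries lay below all WT libraries of their age, with a gap of a few CPM. By the library total alone the groups overlapped at both ages. There YKO4 (33.1 CPM) exceeded YWT2 (27.9 CPM), and OKO2 (53.5 CPM) exceeded OWT2 (41.9 CPM). Ncoa7 had log2 fold changes of −0.70 ± 0.23 (SE) in young and −0.82 ± 0.20 (SE) in old HSCs.

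The pseudogene Gm9855 lies at chr10:42054113-42055306, minus strand. It was at 3.79, 2.75, 2.03 and 1.18 CPM in YWT and at 29.3, 16.6, 24.3 and 22.1 CPM in YKO. In old HSCs it was at 1.46, 2.77, 2.05 and 1.66 CPM in OWT, and in OKO it ran from 4.04 through a median of 9.37 to 17.2 CPM. No KO library overlapped the WT libraries, and the YKO libraries held more than all OKO libraries but OKO7. The log2 fold change of Gm9855 was 3.24 ± 0.42 (SE) in young and 2.24 ± 0.38 (SE) in old HSCs. Its call in old HSCs was lost when any 1 of the OWT libraries, OKO4, OKO5 or OKO6 was left out, and over all alternatives its log2 fold change there ran from 1.91 to 2.60.

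The counts of Gm9855 were then set beside those of Tdg, its parent. Of the counts assigned to either gene, Gm9855 took 4.67% ± 0.884 in YWT and 41.7% ± 1.28 in YKO (SD, n = 4 each). It took 4.77% ± 0.609 in OWT (SD, n = 4) and 39.6% ± 5.05 in OKO (SD, n = 7). Within a library this share does not depend on the scaling, and it ran from 41.0% to 43.6% in YKO and from 31.4% to 45.8% in OKO, against 3.59% to 5.75% in YWT and 3.91% to 5.34% in OWT. Tdg was 47.9 ± 13.6 CPM in YWT and 32.1 ± 6.1 CPM in YKO (SD, n = 4 each). It was 39.6 ± 9.93 CPM in OWT (SD, n = 4) and 14.0 ± 6.25 CPM in OKO (SD, n = 7). Tdg was not called in young HSCs (log2 fold change −0.58 ± 0.31 SE, edgeR adjusted p = 1.0) and fell in old KO HSCs (−1.5 ± 0.27 SE, edgeR adjusted p = 0.0411).

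The sum of both genes overlapped between genotypes at both ages. It was 50.3 ± 14.6 CPM in YWT and 55.2 ± 11.3 CPM in YKO (SD, n = 4 each), a ratio of means of 1.10. In old HSCs it was 41.6 ± 10.5 CPM (SD, n = 4) and 23.4 ± 10.5 CPM (SD, n = 7), a ratio of 0.563. So the division of counts between the pseudogene and Tdg differed between genotypes at both ages, while the mean sum was close in young HSCs and lower in old KO HSCs. Gm9855 and Tdg had 9 mismatches over 1194 aligned bases, of which 5 lie in the windows shown above. Reads that span none of these mismatches could be counted on either gene. How far reads of Tdg were counted on Gm9855 was not tested. Gm5597 and Tdg-ps, further copies of Tdg in the alignment, matched Gm9855 at 99.2% and 98.9%.

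**Figure D3:**
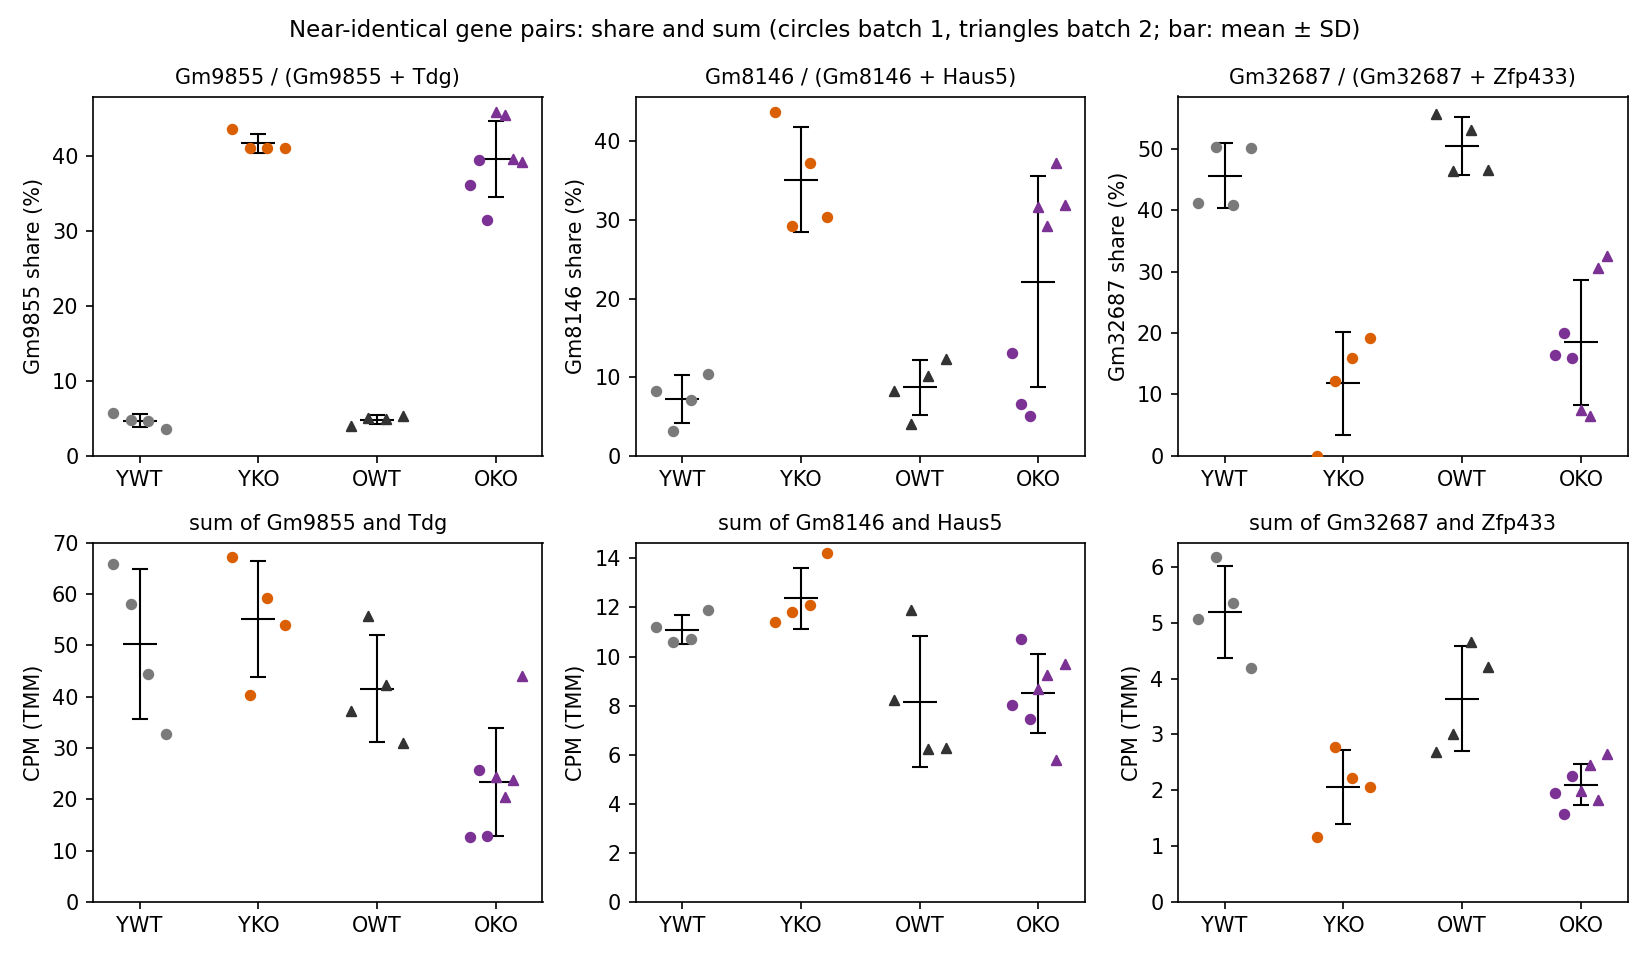
Share of the counts of a pair that was assigned to the member gene (upper row, percent) and sum of both genes (lower row, CPM) for Gm9855 with Tdg, Gm8146 with Haus5 and Gm32687 with Zfp433. Each point is a library (circles batch 1, triangles batch 2) and bars are the mean ± SD (n = 4, 4, 4 and 7). The share of Gm9855 was 4.67% in YWT and 41.7% in YKO, while the sum with Tdg overlapped.

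Gm8146, the Haus5 pseudogene, lies at chr1:181282046-181283892, plus strand. It was at 0.926, 0.338, 0.757 and 1.24 CPM in YWT and at 5.00, 3.46, 4.50 and 4.32 CPM in YKO. It was at 0.679, 0.487, 0.628 and 0.771 CPM in OWT, and in OKO it ran from 0.372 through a median of 2.16 to 3.10 CPM. The YKO libraries lay above all YWT libraries, whereas OKO2 and OKO3 did not exceed the OWT range. The log2 fold change of Gm8146 was 2.40 ± 0.55 (SE) in young and 1.51 ± 0.49 (SE) in old HSCs. Gm8146 was called in young and in old HSCs with batch as a covariate (2.40 and 2.06), and in old HSCs with OKO of batch 2 only (2.08). With the replicate block the old value was 0.71. Its share of the counts of Gm8146 and Haus5 was 7.23% ± 3.03 in YWT and 35.1% ± 6.69 in YKO (SD, n = 4 each). It was 8.69% ± 3.48 in OWT (SD, n = 4) and 22.1% ± 13.4 in OKO (SD, n = 7). In OKO the share split by batch, at 13.1%, 6.62% and 5.0% in OKO1 to OKO3 and 29.2% to 37.3% in OKO4 to OKO7. The OWT libraries ran from 4.09% to 12.3%. Haus5 was not called in YKO vs YWT (log2 fold change −0.35 ± 0.28 SE, edgeR adjusted p = 1.0) or in OKO vs OWT (−0.17 ± 0.25 SE, edgeR adjusted p = 0.778). The sum of both genes overlapped between genotypes at each age, with KO to WT ratios of means of 1.11 in young and 1.04 in old HSCs.

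Gm32687 and Gm8153 are neighbours on chromosome 10, at chr10:81863934-81881081 and chr10:81887013-81887964, both on the plus strand. Gm32687 was at 2.08, 3.11, 2.19 and 2.11 CPM in YWT and at 0.0, 0.339, 0.354 and 0.394 CPM in YKO. It was at 1.5, 1.4, 2.47 and 1.96 CPM in OWT, and in OKO it ran from 0.150 through a median of 0.322 to 0.864 CPM. No KO library reached the WT range at either age, and a count of 0 in YKO1 allows up to 3 counts, or 0.160 CPM, by counting error only. The log2 fold change of Gm32687 was −3.04 ± 0.64 (SE) in young and −2.23 ± 0.51 (SE) in old HSCs. Its share of the counts of Gm32687 and Zfp433 was 45.7% ± 5.34 in YWT and 11.8% ± 8.40 in YKO (SD, n = 4 each). It was 50.5% ± 4.71 in OWT (SD, n = 4) and 18.5% ± 10.2 in OKO (SD, n = 7).

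With TMM scaling, and unlike the sums with Tdg and Haus5, the sum of Gm32687 and Zfp433 did not overlap between genotypes at either age. Its mean in YKO was 0.395 of that in YWT, and in OKO 0.577 of that in OWT. The old groups were barely apart, at up to 2.65 CPM in OKO and from 2.69 CPM in OWT. By the library total alone they overlapped, as OKO1 (3.55 CPM) and OKO3 (3.17 CPM) exceeded OWT1 (2.44 CPM). Zfp433 was not called in YKO vs YWT (log2 fold change −0.66 ± 0.34 SE, edgeR adjusted p = 1.0) or in OKO vs OWT (−0.08 ± 0.30 SE, edgeR adjusted p = 0.922). With 3 mismatches over the whole transcript of Gm32687, reads of these genes that span none of them cannot be told apart, so both values are uncertain.

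Gm8153, a processed pseudogene, had 22, 23, 27 and 32 counts in the YWT libraries and 0, 1, 4 and 1 in the YKO libraries. It had 18, 16, 46 and 35 counts in OWT and between 0 and 12 in OKO. Summed over libraries this was 6 counts in YKO and 104 in YWT, a depth-adjusted ratio of 0.0689 (95% counting interval 0.0247 to 0.155). In old HSCs it was 26 counts and 115 counts, a ratio of 0.135 (0.0847 to 0.208). With TMM scaling the groups did not overlap in CPM at either age. By the library total alone OKO1 (0.439 CPM) exceeded OWT1 (0.231 CPM), so the old groups overlapped. Its near-identical partner Gm5173 was not called at either age (log2 fold changes −0.11 ± 0.87 SE and 0.57 ± 0.79 SE, edgeR adjusted p = 1.0 and 0.769). The sum of Gm8153 and Gm5173 overlapped between genotypes at each age, with KO to WT ratios of means of 0.562 in young and 0.821 in old HSCs. How far reads of Gm8153 were counted on Gm5173 was not tested.

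Gm19428 is annotated as a transcribed processed pseudogene at chr13:65689613-65713454, minus strand, and was the member with the fewest counts. It had 0, 22, 2 and 27 counts in YWT and 0, 1, 0 and 0 in YKO, so YWT1 overlapped the KO libraries. It had 6, 13, 2 and 20 counts in OWT and at most 2 in any OKO library, with 4 of the 7 at 0. The depth-adjusted ratio of KO to WT was 0.0234 (95% counting interval 0.000581 to 0.136) in young and 0.0583 (0.0152 to 0.161) in old HSCs. These intervals cover counting error only, and the YWT libraries themselves spanned 0 to 27 counts.

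Krt13 encodes a type I keratin of stratified epithelia and lies at chr11:100117327-100121566, minus strand. It had 4, 4, 0 and 2 counts in YWT and 12, 81, 48 and 38 counts in YKO, with no overlap in CPM. It had 3, 4, 0 and 10 counts in OWT and 8 to 124 counts in OKO, where OKO2 at 0.149 CPM lay within the OWT range. Krt13 had log2 fold changes of 4.20 ± 1.03 (SE) in young and 3.18 ± 0.93 (SE) in old HSCs. The old value was 2.35 without OKO6 and 4.11 without OWT4. Summed epithelial markers (8 genes) ranged from 122 to 190 CPM in YWT, 70.4 to 146 CPM in YKO, 220 to 312 CPM in OWT and 166 to 338 CPM in OKO, and none of the 8 was at 0 in all libraries of a group. Their ranges overlapped between KO and WT at each age, and their part in the Krt13 values was not tested.

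Dlx4os is an antisense RNA at chr11:95145052-95159047, plus strand, that overlaps the homeobox gene Dlx4 on the other strand. It was at 0.552, 0.651, 0.363 and 0.232 CPM in YWT and at 0.0, 0.0941, 0.146 and 0.0686 CPM in YKO, with no overlap. It was at 4.40, 1.49, 0.795 and 2.71 CPM in OWT, and in OKO it ran from 0.0558 through a median of 0.367 to 0.939 CPM, where OKO4 and OKO6 reached above the lowest OWT library. For Dlx4os the log2 fold change was −2.38 ± 0.83 (SE) in young and −2.40 ± 0.63 (SE) in old HSCs. Dlx4 was not called (log2 fold changes −1.08 ± 0.59 SE and −0.84 ± 0.49 SE, edgeR adjusted p = 1.0 and 0.592). Whether the counting used strand is not stated, so reads from Dlx4os and Dlx4 over the shared stretch cannot be told apart.

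Age was not used to choose the genes, and it was tested within each genotype. In OWT vs YWT none of the 10 was called by edgeR, beside 1 of all tested genes (0.00297%), or by DESeq2, beside 135. Batch and age cannot be told apart there. At an unadjusted p under 0.05 Dlx4os alone passed, with a log2 fold change of 2.39 ± 0.77 (SE, edgeR adjusted p = 0.651), and each OWT library held more than each YWT library. In OKO vs YKO none was called by edgeR either, beside 434 of all tested genes (1.29%). DESeq2 called 3, namely Akap7, Gm9855 and Dlx4os, beside 2100 of all tested genes. Unadjusted p was under 0.05 for Akap7, Gm8146, Gm9855 and Dlx4os. Gm9855 came closest to the threshold, at −1.29 ± 0.33 (SE, edgeR adjusted p = 0.0577), with 6 of 7 OKO libraries below the lowest YKO library. Dlx4os had a log2 fold change of 2.37 ± 0.78 (SE, edgeR adjusted p = 0.135), Akap7 0.60 ± 0.20 (SE, edgeR adjusted p = 0.143) and Gm8146 −1.23 ± 0.45 (SE, edgeR adjusted p = 0.171).

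Wdfy1 was not called by age, at log2 fold changes of 0.16 ± 0.26 (SE, edgeR adjusted p = 1) in WT and −0.15 ± 0.23 (SE, edgeR adjusted p = 0.766) in KO. With batch as a covariate, however, Wdfy1 was called in OKO vs YKO (−0.64 ± 0.22 SE, edgeR adjusted p = 0.0469), beside 6420 of all tested genes. Its value in OWT vs YWT then turned to −0.62 ± 0.30 (SE, edgeR adjusted p = 0.299). With the OKO libraries of batch 1 only, it was −0.57 ± 0.21 (SE, edgeR adjusted p = 0.0647) in OKO vs YKO. As OKO alone spans both batches, both of these OKO vs YKO values compare OKO1 to OKO3 with YKO. By the library total alone, the ratio of means of Wdfy1 between these libraries was 1.03, with overlap. Over all genes no genotype by age interaction was called by edgeR (1556 at an unadjusted p under 0.05, smallest adjusted p = 0.423), so no difference between the ages in the genotype effect was shown for any of the 10.

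The 7 OKO libraries span both batches, and the members were compared between OKO1 to OKO3 and OKO4 to OKO7. Gm8146 was 0.709 ± 0.338 CPM in the 3 of batch 1 and 2.68 ± 0.386 CPM in the 4 of batch 2 (SD), with no overlap. Gm19428 did not overlap either, in the other direction, at 0.0232 ± 0.00675 CPM from 1, 1 and 2 counts in batch 1 and 0 counts in batch 2. For both genes the two-sided exact permutation test gave p = 0.0286, the smallest this design allows, and 0.143 once adjusted over the 10 genes by Benjamini-Hochberg. Wdfy1 was 46.6 ± 4.23 CPM and 79.8 ± 12.7 CPM (exact p = 0.0571, adjusted 0.19), but scaled by the library total alone its ratio of means fell from 1.71 to 1.07 and the batches overlapped. For Gm8146 that ratio was 3.78 with TMM and 2.20 by the library total.

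Within batch 2, which holds all OWT libraries, OKO4 to OKO7 did not overlap OWT for 8 of the 10 genes, Akap7 and Dlx4os being the exceptions, beside 1.83% of all tested genes. The choice of the genes used these libraries, so nothing is read from that count. There the ratio of means was 4.48 for Wdfy1, 5.93 for Gm9855, 4.17 for Gm8146 and 13.5 for Krt13. Within batch 1, OKO1 to OKO3 did not overlap YKO for 4 of the 10 genes, beside 29.2% of all tested genes. These 4, Wdfy1, Gm8146, Gm9855 and Krt13, lay below YKO, with ratios of means of 0.642, 0.164, 0.272 and 0.279. By the library total alone, 6 of the 10 did not overlap, beside 36.2% of all tested genes. Gm8146 (0.278) and Gm9855 (0.421) then lay below YKO, and Akap7 (2.24), Ncoa7 (1.84), Gm32687 (1.92) and Gm19428 (7.66) above it, while Wdfy1 was at 1.03 and Krt13 at 0.474 with overlap. Nothing is read from either count.

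Per kilobase of annotated exon, the order of levels in YWT began with Akap7 (5.6 CPM per kb), Ncoa7 (4.50), Wdfy1 (2.47) and Gm9855 (2.04). Gm32687 (0.997), Gm8153 (0.523), Gm8146 (0.441) and Dlx4os (0.270) followed, and Gm19428 (0.0927) and Krt13 (0.0283) were lowest. In YKO the first was Gm9855 at 19.3 CPM per kb and the next Wdfy1 at 11.2 CPM per kb, ahead of Akap7 at 3.39 and Ncoa7 at 2.77 CPM per kb. In OKO Wdfy1 was first at 10.1 CPM per kb and Gm9855 next at 7.88 CPM per kb. Neighbours in these orders were not tested against each other.

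Chromosome 10, which carries Gadd45b at chr10:80930073-80932204, holds 5 of the 10 genes. Gm32687 and Gm8153 lie 0.94 and 0.96 Mb from Gadd45b, while Gm9855, Ncoa7 and Akap7 lie 38.88, 50.21 and 55.69 Mb away on the other side. Of the 1624 tested genes of chromosome 10 that are no members, 1 did not overlap between genotypes at both ages in the same direction (0.0616%). This was Gm4924, named after the values were seen, which was also the only gene of this kind beside Gm32687 and Gm8153 among the 311 tested within 5 Mb of Gadd45b. With members kept, the share was 0.307% on chromosome 10 (5 of 1629 genes). Over the other chromosomes it was 0.13%, with 41 of 31597 genes and the member Wdfy1 among the 41. Chromosomes 14, 13 and 5 had larger shares than chromosome 10, at 0.552%, 0.399% and 0.316%. The members were chosen on these differences, and leaving them out lowers the share of chromosome 10. Nothing is therefore read from shares with or without them. Tdg, the parent of Gm9855, and Zfp433, the partner of Gm32687, are also near Gadd45b, at 1.71 and 0.78 Mb.

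**Figure D4:**
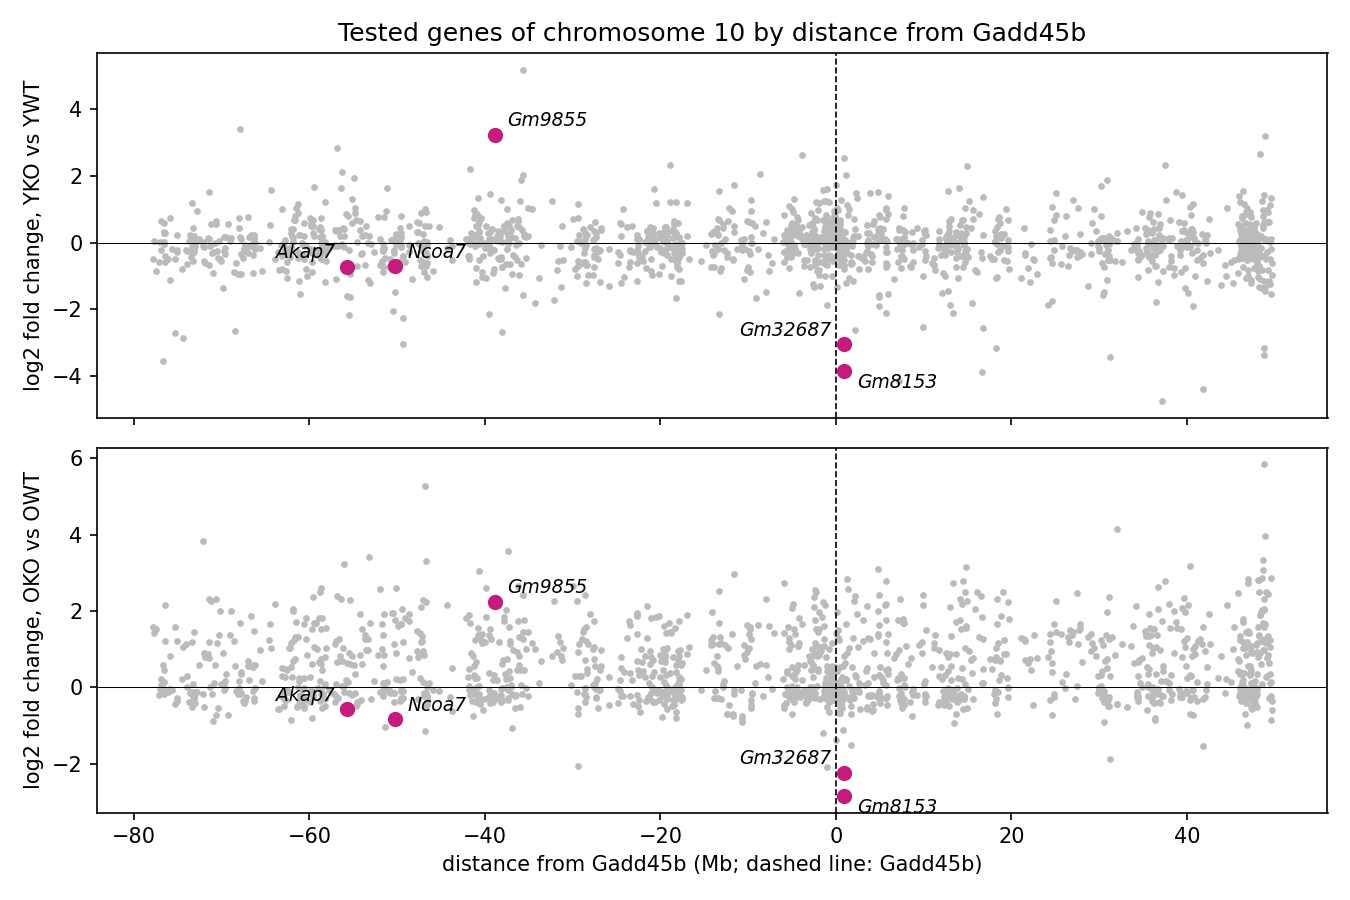
Log2 fold change of KO over WT in young HSCs (upper panel) and old HSCs (lower panel) against the distance from Gadd45b in Mb for the tested genes of chromosome 10 (grey points). The 5 members on this chromosome are in colour, with Gm32687 and Gm8153 within 1 Mb of Gadd45b (dashed line) and the other 3 at 38.88 to 55.69 Mb.

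Of 19 neighbouring tested genes that are no members, 0 were called in either genotype comparison by edgeR or DESeq2 (1 at an unadjusted p under 0.05 in each), and 0 were without overlap at both ages. The shares over all tested genes were 0.0267%, 0.0327% and 0.137%, and nothing is read from a count of 0 among 19 genes. Dlx4, the neighbour of Dlx4os, had differences of the same sign as Dlx4os at both ages. Mrpl44, a mitochondrial ribosomal protein gene that overlaps Wdfy1, had log2 fold changes of 0.01 ± 0.27 (SE) and −0.41 ± 0.24 (SE, edgeR adjusted p = 1.0 and 0.592). Foxo3, the nearest gene above Gm9855 and a transcription factor that maintains HSC quiescence, had 0.09 ± 0.21 (SE) and −0.25 ± 0.19 (SE, edgeR adjusted p = 1.0 and 0.628). Hint3, which overlaps Ncoa7, had −0.22 ± 0.31 (SE) and −0.37 ± 0.27 (SE, edgeR adjusted p = 1.0 and 0.625).

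Genes with a pattern most like that of Wdfy1 over the 19 libraries were sought among 11301 genes, by Pearson's r of log2(CPM + 1) as a description. The 3 with the largest r were 4930480K23Rik (0.96), Dok2 (0.868) and Naaa (0.835). For Gm9855 they were Cox18 (0.901), Slc26a1 (0.875) and Dok2 (0.869). The libraries share genotype and batch, which such values of r also reflect. None of these genes is on the chromosome of its member. 4930480K23Rik and Dok2 lie on chromosome 14, and Naaa, Cox18 and Slc26a1 on chromosome 5.

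Called at both ages in the same direction were 4 of all tested genes (0.0119%), and beside Wdfy1 and Gm9855 these were 4930480K23Rik and Cysltr2. 4930480K23Rik, a long noncoding RNA, had log2 fold changes of 1.79 ± 0.27 (SE) and 1.66 ± 0.25 (SE), and Cysltr2, a cysteinyl leukotriene receptor named after the values were seen, −1.52 ± 0.26 (SE) and −1.39 ± 0.22 (SE). A further 41 genes that are no members did not overlap at both ages in the same direction, 11 higher and 30 lower in KO. Of the 33 with a mean of at least 1 CPM, the 5 with the largest difference at both ages were Klk1b22, Gm42031, 1700023H06Rik, Gm31597 and AC158975.2. Klk1b22, a kallikrein-related peptidase gene on chromosome 7 with close paralogs that make its counts uncertain, had 0 to 1 counts in the YWT libraries and 42 to 370 in the YKO libraries. It had 2 to 3 counts in OWT, 33, 4 and 9 in OKO1 to OKO3, and 1271, 918, 546 and 307 in OKO4 to OKO7.

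Gm31597, an antisense RNA on chromosome 7, had 87 to 150 counts in YWT and 0 to 2 in YKO. It had 138 to 176 counts in OWT, 73, 93 and 114 in OKO1 to OKO3, and 2, 1, 7 and 4 in OKO4 to OKO7. In both genes OKO1 to OKO3 lay nearer to the OWT libraries than OKO4 to OKO7 did.

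The pathways of the members were followed through lists of their other genes. Of 18 genes of TLR3 and TLR4 signalling through TRIF, in which WDFY1 acts, 0 were called in either genotype comparison by edgeR, with median log2 fold changes of 0.01 in young and −0.20 in old HSCs. The medians over all tested genes were −0.02 and 0.12. Tlr4, a receptor of this route, rose in OKO vs YKO (log2 fold change 0.99 ± 0.24 SE, edgeR adjusted p = 0.0409). Of 20 genes of protein kinase A and its anchors, the setting of Akap7, 0 were called in either comparison (medians −0.05 and −0.15). Of 12 genes that encode nuclear receptor coactivators or nuclear receptors, 0 were called in either comparison (medians −0.10 and −0.21 for this mixed list). Of 3 tested TLDc family genes, which share that domain with Ncoa7, 0 were called (medians −0.31 and 0.40).

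Of 19 genes of base excision and active demethylation, 0 were called in young HSCs and the counts assigned to Tdg fell in old KO HSCs (medians 0.20 and −0.16). Because reads of Tdg may be counted on the member Gm9855, the Tdg value is not independent of the choice of the genes. The sum of both overlapped between OKO and OWT. In OKO vs YKO Tdg fell (log2 fold change −1.20 ± 0.27 SE, edgeR adjusted p = 0.0275) and Neil2, another DNA glycosylase gene, rose (1.64 ± 0.37 SE, edgeR adjusted p = 0.0304). Of the Gadd45 family 0 of 3 were called by genotype, and Gadd45a fell in OKO vs YKO (−1.19 ± 0.25 SE, edgeR adjusted p = 0.0196). Among 3 other WD-repeat and FYVE genes, 12 tested keratins and 6 Dlx genes 0 were called by edgeR in any comparison, while DESeq2 called 5 keratins in OKO vs YKO. Over the 96 tested genes of these lists, 5 in young and 4 in old HSCs had an unadjusted p under 0.05 by genotype, and DESeq2 called 0 and 2 (Gadd45b and Tdg). The largest mean genotype difference in the TRIF list was that of Ly96, the TLR4 co-receptor, at −0.53 ± 0.40 (SE) and −0.55 ± 0.34 (SE, edgeR adjusted p = 1 and 0.601). In the other lists it was that of Prkar1b, Oxr1, Ncoa4, Tdg, Wdfy4, Krt222 and Gadd45b, of which Tdg alone was called.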

How the data were processed

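Read counts of 19 RNA-seq libraries of sorted HSCs were used, while the bisulfite sequencing samples were not used here. The authors trimmed reads with Trim Galore 0.4.3 and cutadapt, aligned them with STAR to mm10 and a GENCODE M22 index, and deposited raw counts per gene symbol from featureCounts. The sources do not state if read mates were counted as 1 or if the counting was stranded. In each of the 19 libraries more genes had a count of 2 than a count of 1. The members and the gene lists were chosen with earlier results of these data known.

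Counts were filtered with filterByExpr, scaled by TMM and fitted in edgeR 4.0.16 (R 4.3.3) with 1 mean per group over the 19 libraries and no covariate. Genes were called at an adjusted p (Benjamini-Hochberg) below 0.05 with a fold change above 1.5. The paper's methods name DESeq2 with these thresholds, which was run as an alternative (DESeq2 1.42.0). The edgeR steps were tested on simulated data. Libraries did not overlap where every KO library lay above or below every WT library of that age. Intervals of summed counts are exact, at 95%, and cover counting error only. Positions and transcripts are those of GENCODE M21 on mm10, which held 33226 of the 33690 tested genes. Transcripts were aligned with blastn 2.17.0.

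Named genes were the members, Gadd45b, Tdg, Dlx4, the 3 genes most like Wdfy1 and Gm9855, the neighbours of each member, called genes and the leading gene of each list, and the 5 other genes with the largest difference of the same direction at both ages. Alternatives were DESeq2, other scaling, other filters, a call by adjusted p without the fold, separate fits for each pair of groups, batch as a covariate, a replicate block, single batches of OKO, and leaving out each library.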

Additional observations from a re-analysis of the deposited data

Results flagged for a closer look

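Within the 4 groups, 44 sets of libraries (the 10 genes and Gadd45b) were searched for 1 library far from the others by Dixon's ratio, and 7 had one, where chance gives about 1 in 20. Ncoa7 was 84.3 CPM in OWT1 and 46.2 to 52.6 CPM in the other OWT libraries. Krt13 was 2.31 CPM in OKO6 and 0.149 to 0.563 CPM in the other OKO libraries. Gm8153 was 0.242 CPM in OKO1 and at most 0.093 CPM in the other OKO libraries. Gm32687 was 3.11 CPM in YWT2 against 2.08 to 2.19 CPM in the other YWT libraries, and 0.0 CPM in YKO1 against 0.339 to 0.394 CPM in the other YKO libraries. Gm19428 was 0.0188 CPM in YKO2, from 1 count, and 0.0 CPM in the other YKO libraries. Gadd45b was 15.5 CPM in OWT3 and 10.1 to 10.4 CPM in the other OWT libraries. YWT2 had the lowest TMM factor of its group, 0.6919, and the highest summed plasma cell markers, 18500 CPM. YKO1 had the lowest total, 22197555 counts.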

How the results depend on the processing

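The log2 fold changes of the 10 genes between KO and WT kept their direction in all 560 values that the alternatives gave at both ages. Wdfy1 was called in all 28 alternatives in young and in 28 of 29 in old HSCs, the replicate block being the exception, and Gm9855 in 28 and 20.

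DESeq2 called 4 of the genes in YKO vs YWT (Gm8146 and Gm32687 with the 2 above), beside 140 of all tested genes. It called 4 in OKO vs OWT (Gm32687 and Krt13 with the 2 above), beside 74. With batch as a covariate 3 were called in each of these comparisons, beside 34 and 25 of all genes. With OKO of batch 2 only 3 were called in OKO vs OWT, beside 24. Gm8146 was the third each time. In OKO vs OWT a fit of the compared groups called 1 and the replicate block 0. With that block OKO5 to OKO7, which share their number with no other library, add nothing to the comparison. Why the calls were lost was not tested. In OKO vs YKO, where 0 were called, 1 was called with DESeq2 size factors in edgeR (beside 702 of all genes) and with no filter (622). With upper-quartile scaling (1078), a mean CPM of at least 1 (1548), the replicate block (1774) and OKO of batch 1 only (6285), 2 were called. With batch as a covariate (6420) and with DESeq2 (2100), 3 were called, and nothing is read from these counts. Gm9855 was among these under each, with adjusted p from 0.00405 to 0.222 over its 29 alternatives. Without single libraries the count of called genes was 2 in YKO vs YWT, 1 to 2 in OKO vs OWT, 0 in OWT vs YWT and 0 to 1 in OKO vs YKO. In OKO vs OWT it was 1 without any 1 of the OWT libraries and without OKO4, OKO5 or OKO6. In OKO vs YKO it was 1 without YWT1, YWT4 or OKO7. The genes without overlap at both ages numbered 5 to 6 without single libraries. With CPM by the library total alone they numbered 4, namely Wdfy1, Gm9855, Gm32687 and Krt13. Ncoa7 and Gm8153 then overlapped.

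Over all tested genes, the alternatives called 2 to 140 in YKO vs YWT (9 as reported), 0 to 74 in OKO vs OWT (11), 0 to 135 in OWT vs YWT (1) and 102 to 6420 in OKO vs YKO (434). In OWT vs YWT, the sign of the log2 fold change turned for Wdfy1 (−0.62), Gm19428 (2.80) and Krt13 (−1.32) with batch as a covariate. That covariate is fitted from OKO alone, the only group in both batches, so these values carry over the batch difference within OKO. With the replicate block the sign turned for Gm8153 (−0.10), and the cause was not tested. Without single libraries the log2 fold change ranged from −0.53 to 0 for Gm9855, −0.43 to 0.30 for Gm8153 and −0.47 to 0.89 for Krt13. The same-numbered libraries did not deviate together (r from −0.45 to 0.277), so the numbers do not pair them. Members at a count of 0 (14 values) could have been at up to 0.0408 to 0.160 CPM.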
